A study of Homo sapiens with 10 samples.

Results

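The genes described are 10 angiogenic factors and receptors, chosen by symbol as the secreted ligands *VEGFA*, *VEGFB*, *VEGFC*, *PGF*, *ANGPT1* and *ANGPT2*, the receptors *FLT1* and *KDR*, the co-receptor *NRP1* and the inhibitor *THBS1*. They are 10 of 28265 gene symbols, and all 10 passed the filter on low counts that left 21014 genes for testing. Bulk RNA-seq was performed on living NKX2-1 GFP+ cells sorted from thyroid organoids of ESIBIe003-A-6, a single modified human embryonic stem cell line. One *NKX2-1* allele of the line reports through GFP, and added transgenes for *NKX2-1* and *PAX8* respond to doxycycline, which was given briefly at an early stage in all groups. There were 2 libraries at each of days 16, 23, 31, 38 and 45, 10 in all, each made from pooled wells, with 7247268 to 10333933 counted reads per library. The libraries of days 16, 23 and 31 are labelled c-AMP, those of day 38 TSH DEX, and those of day 45 TSH SB. By the study's methods the day 16 cells had not yet received the cAMP analogue 8-br-cAMP, the day 38 cells had received TSH and dexamethasone in its place, and the day 45 cells had received SB431542, an inhibitor of TGFβ receptor kinases, with dexamethasone still present. The study dates the replacement of cAMP to shortly before day 31, whereas the day 31 libraries are labelled c-AMP. It places the start of SB431542 shortly before day 38 in one passage and at day 38 in another. The libraries of both days are treated here as labelled. Days 23 and 31 thus share a labelled medium, though by the study's date for the replacement their media may differ. Day 16 carries the same label, but is taken here by the methods as before cAMP. In the other comparisons time and medium, so taken, changed together, so their parts in a difference cannot be told apart. The cells kept on cAMP alone at the last time points were not analysed here.

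VEGF ligands act on blood vessels through receptor kinases on endothelial cells. VEGFA binds FLT1 and KDR, PGF and VEGFB bind FLT1, VEGFC acts mainly on FLT4 and lymphatic vessels, and NRP1 is a co-receptor that also binds semaphorins. Angiopoietins bind TEK, which ANGPT1 activates and ANGPT2 mostly blocks, while thrombospondin 1, the product of *THBS1*, restrains vessel growth. In the thyroid each follicle lies against a basket of capillaries, and the follicular cells are a known source of VEGFA.

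The sorted cells carried the defining thyroid markers at every time point. *PAX8*, a thyroid transcription factor, had day means of 503 to 650 CPM (CPM are counts divided by the library total scaled with the TMM factors of edgeR, and then set to a common scale) and *NKX2-1* had 62.4 to 154 CPM. *TG*, the precursor protein of thyroid hormone, rose from a mean of 11.2 CPM at day 16 to 7744 CPM at day 45. The defining endothelial markers were low. *PECAM1* was at 0 counts in both libraries of days 16, 23 and 31 and reached at most 14 counts, at day 45. *CDH5* had at most 47 counts and *VWF* at most 19 counts in a library. Other markers of the endothelial list were higher, with means at day 16 of 62.8 CPM for *EMCN* and 28.4 CPM for *MMRN2*. In bulk libraries fewer cells of a type and less RNA per cell cannot be told apart.

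Expression of 8 of the 10 genes differed between days (edgeR quasi-likelihood test, adjusted p under 0.05), where 36.3% of all tested genes did. The genes, and the lists below, were chosen with earlier results of these data known. Such counts beside the share of all genes are therefore descriptions. *VEGFB* (adjusted p = 0.332) and *ANGPT2* (adjusted p = 0.858) did not pass. Between day 16 and day 23, 3 of the 10 genes fell (*VEGFA*, *VEGFC* and *NRP1*) and 0 rose, and 10.9% of all genes passed, 5.60% as higher and 5.33% as lower. Between day 23 and day 31, *VEGFA* and *THBS1* rose and 0 of the 10 fell, where 2.25% of all genes passed (1.58% higher, 0.666% lower). The step from day 31 to day 38, labelled c-AMP and TSH DEX, held 6 calls, with *VEGFA*, *PGF* and *VEGFC* higher and *KDR*, *NRP1* and *ANGPT1* lower. In that step 15.0% of all genes passed (8.80% higher, 6.23% lower). From day 38 to day 45 *THBS1* rose while *VEGFA* and *ANGPT1* fell, against 11.2% of all genes (4.85% higher, 6.35% lower). Over the whole course, day 45 against day 16, *VEGFA*, *PGF*, *FLT1* and *THBS1* were higher and *ANGPT1* and *NRP1* lower, where 24.6% of all genes passed (12.9% higher, 11.7% lower).

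The median log2 fold change of the 10 genes in these 5 comparisons, in the same order, was -0.15, 0.24, 0.24, -0.16 and 0.30. The medians over all tested genes lay between -0.02 and 0.00. Scaling affected the general split of calls in the step to day 38: of the calls, 58.5% were higher with TMM factors and 33.3% with library size alone, which moved the median of all genes to -0.20. None of the calls named above changed sign under any scaling tried. With 2 libraries per group, p-values rest on the spread between libraries that the study describes as biological replicates.

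**Figure D1:**
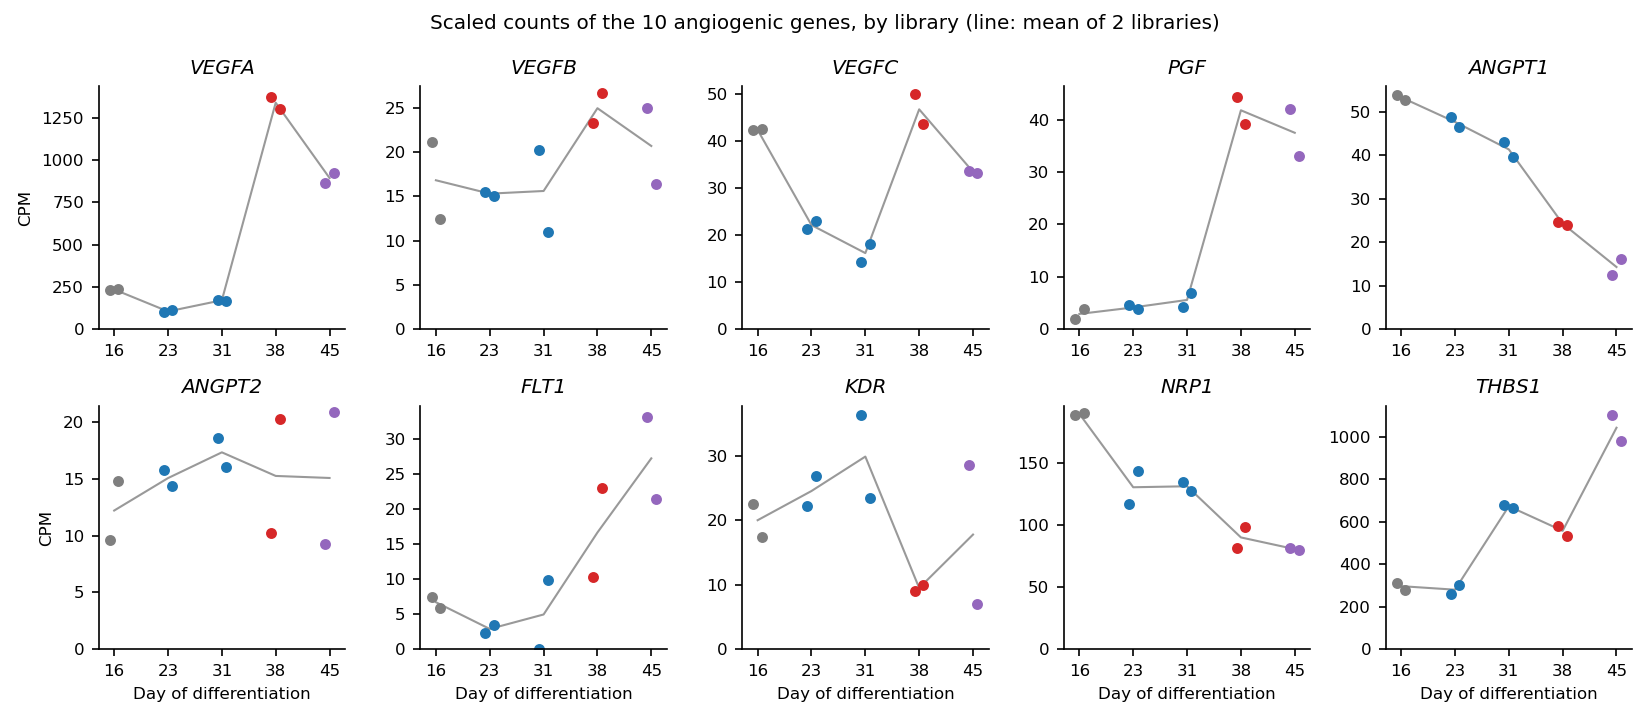
Scaled counts (CPM, y axes starting at 0 with their own range) of the 10 genes against the day of differentiation, with 1 point per library and a line through the mean of the 2 libraries of a day. Gray points are day 16, blue points the cAMP days 23 and 31, red points day 38 (TSH and dexamethasone) and purple points day 45 (SB431542 added), and *VEGFA* and *PGF* are seen to rise steeply at day 38.

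*VEGFA* lies on chromosome 6 (43770184 to 43786487, plus strand, GRCh38, GENCODE 44) and its canonical transcript has 8 exons. It encodes the main endothelial growth factor of the family. Its libraries held 231 and 239 CPM at day 16, 99.2 and 111.5 CPM at day 23, 173 and 169 CPM at day 31, 1374 and 1303 CPM at day 38, and 867 and 921 CPM at day 45. Day 38 was the highest and day 23 the lowest, 12.7-fold apart in their means, and the libraries of no pair of days overlapped. *VEGFA* fell by 1.16 on the log2 scale to day 23 (SE 0.12, adjusted p = 6.39e-09), then rose by 0.70 to day 31 (SE 0.12, adjusted p = 0.000252). The rise to day 38 was 2.97 on the log2 scale (SE 0.12, adjusted p = 3.94e-19). It fell by 0.58 to day 45 (SE 0.11, adjusted p = 0.000401), where it still stood 1.93 above day 16 (SE 0.12, adjusted p = 4.18e-15). All neighbors in the order of days (38, 45, 16, 31, 23) differed, including day 16 over day 31 (adjusted p = 0.00577; 12.9% of all genes passed in that pair). The calls between successive days and between day 16 and day 45 held when any single library was left out.

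*PGF* (chromosome 14, 74941834 to 74955626, minus strand) encodes placental growth factor, a ligand of FLT1. It was low at first, with 2.03 and 3.82 CPM at day 16, 4.54 and 3.77 CPM at day 23, and 4.197 and 6.98 CPM at day 31. It then stood at 44.3 and 39.2 CPM at day 38 and 42.0 and 33.0 CPM at day 45. The libraries of the last 2 days lay above all others and overlapped each other. The rise between day 31 and day 38 was 2.90 on the log2 scale (SE 0.37, adjusted p = 2.12e-07), and day 45 stood 3.67 above day 16 (SE 0.39, adjusted p = 3.25e-09). Neighboring days among the first 3 overlapped and did not pass (adjusted p = 0.499 for day 23 against day 16 and 0.748 for day 31 against day 23). Both day 31 libraries lay above both day 16 libraries, a difference of 0.92 on the log2 scale that did not pass (SE 0.40, adjusted p = 0.140). Days 38 and 45 did not pass either (adjusted p = 0.846). Day 45 exceeded day 31 (adjusted p = 3.88e-07; 22.5% of all genes passed in that pair).

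*VEGFC* (chromosome 4, 176683538 to 176792922, minus strand), the lymphatic growth factor, fell and came back. Its libraries held 42.2 and 42.5 CPM at day 16, 21.3 and 22.98 CPM at day 23, 14.3 and 18.04 CPM at day 31, 49.9 and 43.5 CPM at day 38, and 33.7 and 33.2 CPM at day 45. The day 16 and day 38 libraries were highest. The fall to day 23 was -0.94 on the log2 scale (SE 0.25, adjusted p = 0.00986), and it did not pass without day 23 replicate 1 (adjusted p = 0.0885) or replicate 2 (adjusted p = 0.0546). The rise to day 38 was 1.53 (SE 0.25, adjusted p = 2.46e-05) and held without any single library. Day 38 and day 16 did not differ beyond their spread (adjusted p = 0.784).

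*VEGFB* (chromosome 11, 64234584 to 64239264, plus strand), a ligand of FLT1 linked to heart muscle and fat metabolism, ranged from 10.9 to 26.7 CPM over the 10 libraries. The libraries of each day overlapped those of the next day in the order of means, and no neighboring pair passed.

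Levels of the ligands can be compared with each other per kilobase of transcript. On the length of the canonical transcripts, the 4 VEGF ligands together came to 95.6 and 94.2 CPM per kb at day 16, then 48.1 and 51.6 on day 23, and 68.0 and 65.0 on day 31. They came to 441 and 418 CPM per kb at day 38 and 293 and 298 at day 45. *VEGFA* made up 67.0% and 70.4% of this sum at day 16, 57.1% and 59.9% at day 23, 70.6% and 72.2% on day 31, and 86.3% and 86.5% on day 38. It made up 82.0% and 85.7% at day 45. The share depended on the length used: on the union of all exons, which is 14431 bases for *VEGFA* against 3609 for its canonical transcript, it was 42.1% and 46.2% on day 31 against 71.2% and 71.0% on day 38. On the union length *VEGFA* was not the largest ligand at day 23, with 29.0% and 31.1% against 34.4% and 35.4% for *VEGFC*, and at day 16 it had 37.0% and 41.7% against 37.3% and 40.8%. The day 38 libraries exceeded the day 31 libraries on both lengths.

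**Figure D2:**
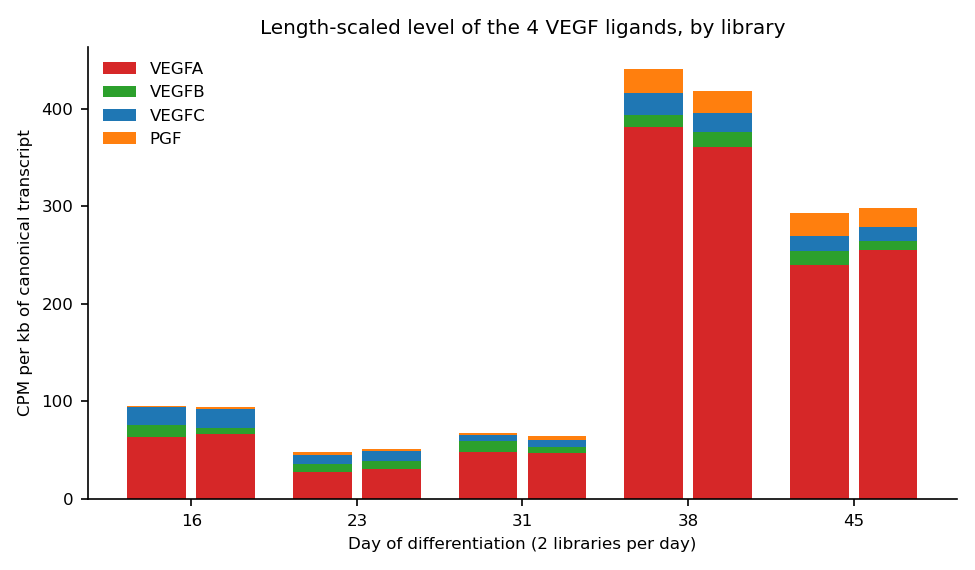
Stacked bars of CPM per kb of canonical transcript for *VEGFA* (red), *VEGFB* (green), *VEGFC* (blue) and *PGF* (orange), 1 bar per library and 2 bars per day, from 0. The bars reach 441 and 418 CPM per kb at day 38 and are mostly *VEGFA*, against 68.0 and 65.0 at day 31.

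*ANGPT1* (chromosome 8, 107249482 to 107498055, minus strand), the activating ligand of TEK that stabilizes vessels, fell over the course. Its libraries held 53.9 and 52.8 CPM at day 16, 48.9 and 46.5 CPM at day 23, 43.2 and 39.6 CPM at day 31, 24.7 and 23.9 CPM at day 38, and 12.5 and 16.2 CPM at day 45. Each day lay below the day before with no overlap between libraries. The change from day 16 to day 45 was -1.89 on the log2 scale (SE 0.25, adjusted p = 1.82e-07) and held without any single library. The 2 later steps were near the threshold, at -0.77 (SE 0.24, adjusted p = 0.0218) to day 38 and -0.76 (SE 0.25, adjusted p = 0.0395) to day 45. The first of them did not pass with any of its 4 libraries left out (adjusted p up to 0.170), and the second did not pass in 3 of 4 such cases (adjusted p up to 0.262).

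*ANGPT2* (chromosome 8, 6499632 to 6563409, minus strand), mostly an antagonist of TEK, ranged from 9.29 to 20.9 CPM. The libraries of neighboring days in the order of means overlapped throughout, and no pair of neighbors passed. The gene shares 658 exon bases (9.69% of its exon length) with *MCPH1* on the other strand. Since the strand setting of the counting is not given in the sources used here, reads of such overlapping genes may be mixed and its level is uncertain. The same holds to a smaller degree for *THBS1*, which shares 448 exon bases with *FSIP1* and 411 with *THBS1-AS1*, for *NRP1* (561 bases) and for *VEGFA* (188 bases), both with an antisense long noncoding RNA.

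*NRP1* (chromosome 10, 33177492 to 33336262, minus strand) was the most abundant of the 3 receptor genes per length at every time point, with mean levels of 23.2 CPM per kb of canonical transcript at day 23 against 4.21 for *KDR* and 0.404 for *FLT1*. Its libraries held 189 and 191 CPM at day 16, 117 and 144 CPM at day 23, 135 and 128 CPM at day 31, 82.0 and 98.4 CPM at day 38, and 81.7 and 79.7 CPM at day 45. The libraries stepped down after day 16 and after day 31. The fall to day 23 was -0.54 on the log2 scale (SE 0.15, adjusted p = 0.0140), and without day 23 replicate 1 it was -0.40 (adjusted p = 0.237). The fall to day 38 was also -0.54 (SE 0.15, adjusted p = 0.0105), and it did not pass without day 31 replicate 1 (adjusted p = 0.0957) or day 38 replicate 1 (adjusted p = 0.230). Day 45 stood at -1.24 against day 16 (SE 0.15, adjusted p = 6.96e-08), with or without any single library past the threshold. In the order of days, day 16 exceeded day 31 (adjusted p = 0.0135) and day 23 exceeded day 38 (adjusted p = 0.0103; 17.5% of all genes passed in that pair), while days 31 and 23 and days 38 and 45 did not differ beyond their spread.

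*KDR* (chromosome 4, 55078481 to 55125595, minus strand), the main signaling receptor for VEGFA, held 22.6 and 17.5 CPM at day 16, 22.3 and 26.9 CPM at day 23, and 36.3 and 23.5 CPM at day 31. It was at 8.97 and 10.0 CPM at day 38 and at 28.6 and 6.99 CPM at day 45. Both day 38 libraries lay below those of all earlier days, and the day 45 libraries lay on either side of them. The fall from day 31 to day 38 was -1.66 on the log2 scale (SE 0.40, adjusted p = 0.00321), and without day 31 replicate 1 it was -1.31 (adjusted p = 0.111). Day 45 was not separable from day 38 (log2 fold change 0.89, SE 0.40, adjusted p = 0.177). The 2 libraries of day 45 decided that value, which was 1.59 without replicate 2 (adjusted p = 0.00448) and -0.44 without replicate 1 (adjusted p = 0.638).

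*FLT1* (chromosome 13, 28300346 to 28495145, minus strand), which binds VEGFA, VEGFB and PGF and also exists as a soluble decoy, was low, with 7.48 and 5.91 CPM at day 16 and 2.33 and 3.43 CPM at day 23. At day 31 it had 0 counts in replicate 1 and 85 counts (9.89 CPM) in replicate 2, where 3 counts correspond to 0.307 CPM in replicate 1. It held 10.3 and 23.1 CPM at day 38 and 33.1 and 21.4 CPM at day 45. Both last days lay above days 16 and 31 with no overlap. The change to day 45 was 2.02 above day 16 (SE 0.69, adjusted p = 0.0273), but it did not pass with any of the 4 libraries left out (adjusted p 0.0515 to 0.191) or with DESeq2 (adjusted p = 0.401). The step from day 31 to day 38 did not pass (1.77, SE 0.69, adjusted p = 0.0856) and was 0.75 without the day 31 library at 0. Among the genes of day 31, 5 had 0 counts in replicate 1 and at least 50 in replicate 2, and 4 had the reverse. *FLT1* was the 1 gene of that day with 0 in replicate 1 and at least 85 in replicate 2.

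*THBS1* (chromosome 15, 39581079 to 39599466, plus strand) encodes a matrix glycoprotein that restrains endothelial growth and can activate latent TGFβ. Its libraries held 313 and 280 CPM at day 16, 259 and 301 CPM at day 23, 682 and 665 CPM at day 31, 582 and 534 CPM at day 38, and 1105 and 984 CPM at day 45. Days 16 and 23 overlapped, and all later libraries lay above them. The rise to day 31 was 1.27 on the log2 scale (SE 0.12, adjusted p = 1.24e-08) and the rise to day 45 was 0.90 (SE 0.12, adjusted p = 9.05e-07). Day 45 stood 1.81 above day 16 (SE 0.12, adjusted p = 4.3e-14). Both rises held without any single library. The step from day 31 to day 38, in which *VEGFA* rose, was -0.27 (SE 0.12, adjusted p = 0.129). Day 38 still exceeded day 16 (adjusted p = 3.49e-07; 16.3% of all genes passed in that pair).

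The balance of *VEGFA* and *THBS1* per kilobase of canonical transcript moved with these changes. The ratio stood at 1.59 and 1.84 at day 16, lay lower at day 23 (0.826 and 0.800), and was lowest at day 31 (0.549 and 0.550). The values were 5.10 and 5.27 on day 38, then 1.70 and 2.02 on day 45. The 2 day 38 libraries lay above all others, and the day 45 libraries overlapped those of day 16. The size of the ratio depends on the length used, while its order over the days does not. On the union of all exons *VEGFA* lay below *THBS1* at day 16 (means of 16.3 against 32.4 CPM per kb) and day 45 (61.9 against 114). It lay above *THBS1* at day 38 (92.8 against 60.9).

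**Figure D3:**
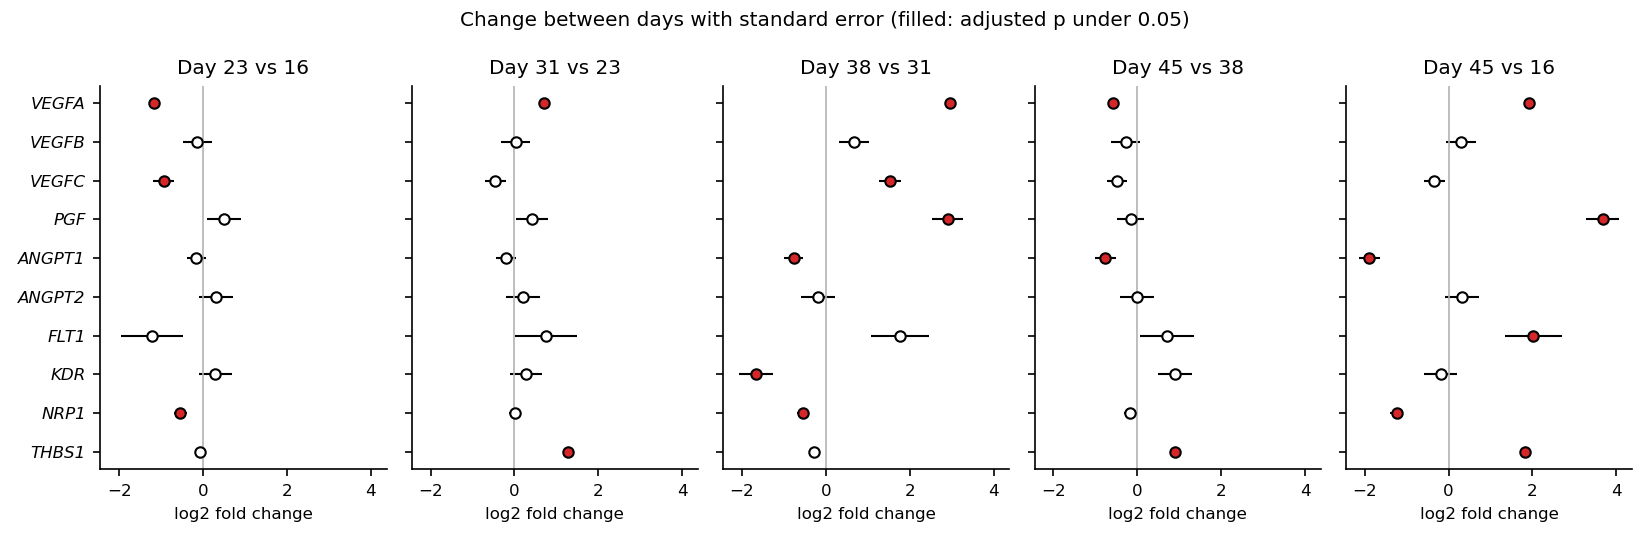
Log2 fold change (x axis) of each of the 10 genes in 5 comparisons of days, with bars for 1 standard error, from the edgeR fit over all 10 libraries. Filled points passed an adjusted p of 0.05, and the day 38 against day 31 panel holds 3 filled points above 0 (*VEGFA*, *PGF*, *VEGFC*) and 3 below (*ANGPT1*, *KDR*, *NRP1*).

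The other VEGF and angiopoietin ligands and receptors, a list of 8 genes, had 4 that differed between days, where 36.3% of all genes did. *TEK*, the angiopoietin receptor, had 0.888 and 2.96 CPM at day 16, 17.6 and 25.4 CPM at day 31, and 4.75 and 8.73 CPM at day 38. It rose to day 23 by 2.61 on the log2 scale (SE 0.55, adjusted p = 0.00106) and changed by -1.67 to day 38 (SE 0.49, adjusted p = 0.0164). The latter did not pass without day 31 replicate 2 (adjusted p = 0.169) or day 38 replicate 1 (adjusted p = 0.251). *FLT4*, the VEGFC receptor, rose from 9.11 and 14.1 CPM at day 31 to 27.7 and 31.8 CPM at day 38 (log2 fold change 1.36, SE 0.34, adjusted p = 0.00376), but did not pass without day 31 replicate 1 (adjusted p = 0.0990) or day 38 replicate 2 (adjusted p = 0.0622). *NRP2*, a co-receptor of VEGFC and semaphorins, changed by -0.67 from day 38 to day 45 (SE 0.17, adjusted p = 0.00571), and this did not pass without day 38 replicate 2 (adjusted p = 0.114) or day 45 replicate 1 (adjusted p = 0.0836). In the step to day 38, 2 of the 8 rose and 1 fell, with a median log2 fold change of 0.38, against 15.0% of all genes that passed. With single libraries left out 0 to 2 rose and 0 to 1 fell.

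Of 14 genes for other thrombospondins, their receptors and other angiogenesis inhibitors, 10 differed between days (36.3% of all genes). In the step to day 38, 5 rose and 1 fell (15.0% of all genes passed), with a median log2 fold change of 0.44. The number that fell was 1 to 3 under other fits, 3 with library size alone, and 0 to 2 with single libraries left out, 0 without day 38 replicate 2. *TIMP3*, a matrix-bound protease inhibitor that blocks VEGFA from KDR, rose in each of the 4 steps, from 69.9 and 63.9 CPM at day 16 to 712 and 672 CPM at day 45 (log2 fold change 3.37, SE 0.14, adjusted p = 1.14e-19). Its rise of 0.48 to day 31 (adjusted p = 0.0287) did not pass with any of the 4 libraries of that step left out (adjusted p up to 0.360). *SERPINF1*, which encodes the antiangiogenic factor PEDF, rose by 2.32 to day 38 (SE 0.30, adjusted p = 3.01e-07). *ADAMTS1*, a protease with thrombospondin repeats, rose by 1.13 from day 38 to day 45 (SE 0.15, adjusted p = 8.04e-07). *SPARC*, a matrix protein that binds VEGFA, fell by 0.64 to day 23 (SE 0.11, adjusted p = 8.87e-05), rose by 1.01 to day 38 (SE 0.11, adjusted p = 1.71e-08) and fell by 0.54 to day 45 (SE 0.11, adjusted p = 0.000747). It was lower at day 45 than at day 16 (-0.46, SE 0.11, adjusted p = 0.00167). Between days 38 and 45, *ADAMTS1* and *TIMP3* rose and 4 of the list fell (*SPARC*, *CD47*, *COL18A1* and *VASH2*), where 11.2% of all genes passed. The number that fell was 1 without day 38 replicate 2 and 2 without day 45 replicate 1. Day 45 against day 16 had 4 higher and 4 lower (*SPARC*, *CD47*, *THBS3* and *VASH2*), where 24.6% of all genes passed. The calls of *CD47* and of *THBS2*, among the 4 higher, did not hold with every single library left out. *CD47* was -0.32 without day 16 replicate 2 and -0.31 without day 45 replicate 1. *THBS2* was 1.66 without day 16 replicate 2 and 1.46 without day 45 replicate 2.

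Hypoxia-inducible factors (HIF) are transcription factors that accumulate when oxygen is scarce, and *VEGFA* is among their best known targets. A list of 10 other HIF target genes was therefore followed beside the ligands. All 10 differed between days, where 36.3% of all genes did. The list was chosen with earlier results of these data known, so its counts are descriptions. From day 16 to day 23, 6 fell and 1 (*NDRG1*) rose, with a median of -1.53 on the log2 scale (10.9% of all genes passed). From day 23 to day 31, 6 rose and 0 fell (median 0.83), where 2.25% of all genes passed. From day 31 to day 38, 7 rose and 0 fell (median 1.62), where 15.0% of all genes passed. From day 38 to day 45, 0 rose and 6 fell (median -0.75), where 11.2% of all genes passed. The number that fell in this last step was 5 to 6 under other fits, and not all 6 calls held with every single library left out. The number that rose to day 38 was 7 under every alternative tried, and the number that rose to day 31 was 3 to 6 when single libraries were left out, 3 without day 23 replicate 2. Day 45 against day 16 had 4 higher (*NDRG1*, *P4HA1*, *SLC2A1* and *EGLN3*) and 2 lower (*PDK1* and *ANKRD37*), where 24.6% of all genes passed. *ANKRD37* was lost without day 16 replicate 1 (adjusted p = 0.0605).

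*SLC2A1*, the glucose transporter GLUT1, held 367 and 394 CPM at day 31, 1777 and 1591 CPM at day 38, and 667 and 586 CPM at day 45. *P4HA1*, a collagen prolyl hydroxylase subunit, held 126 and 115 CPM at day 31, 600.0 and 598 CPM at day 38, and 390 and 364 CPM at day 45. *PDK1*, which holds pyruvate back from the mitochondria, held 95.9 and 98.7 CPM at day 31, 299 and 316 CPM at day 38, and 86.7 and 79.8 CPM at day 45. The fall of *VEGFA* from day 38 to day 45 was -0.58 on the log2 scale, beside -1.43 for *SLC2A1* (SE 0.14), -1.88 for *PDK1* (SE 0.14), -0.67 for *P4HA1* (SE 0.13) and -0.29 for *NDRG1* (SE 0.17, adjusted p = 0.336). Over the 10 genes this change ran from -1.88 to 0.49, with 6 below that of *VEGFA* and 4 above it. *NDRG1*, a stress-responsive gene, held 84.3 and 61.8 CPM at day 31, 252 and 209 CPM at day 38, and 187 and 190.4 CPM at day 45. The summed level of the 10 genes was 1326 CPM at day 16, 583 CPM at day 23 and 1027 CPM at day 31. It was 3617 CPM at day 38 and 1803 CPM at day 45.

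Of 8 HIF subunits and regulators 7 were tested, since *EGLN2* had 0 counts in all 10 libraries, and 5 of the 7 differed between days (36.3% of all genes). The cause of the 0 for *EGLN2* was not tested, and the counts alone do not show that its RNA was absent. To day 23, 2 rose and 1 fell (10.9% of all genes passed), but the rise of *HIF3A* was lost with upper-quartile factors (adjusted p = 0.0686) and with 6 of the single libraries left out (adjusted p 0.0547 to 0.367). From day 23 to day 31, 0 passed with edgeR or DESeq2, with *EGLN1* and *HIF1A* at an unadjusted p under 0.05. From day 31 to day 38, 2 rose and 0 fell (15.0%), from day 38 to day 45 1 rose and 1 fell (11.2%), and at day 45 against day 16 2 were higher and 0 lower (24.6%). *HIF1A*, which encodes HIF1α, passed in none of these 5 comparisons, although it differed between days (adjusted p = 0.00979), with 381 and 369 CPM at day 31 and 426 and 410.2 CPM at day 38 (adjusted p = 0.469). *EGLN1*, a prolyl hydroxylase that marks HIF for destruction and is itself a HIF target, fell by 0.87 to day 23 (SE 0.16, adjusted p = 0.000189), rose by 1.54 to day 38 (SE 0.16, adjusted p = 3.06e-09) and fell by 1.13 to day 45 (SE 0.16, adjusted p = 2.43e-06). *HIF3A* rose by 1.43 to day 38 (SE 0.13, adjusted p = 1.53e-10). *EPAS1*, which encodes HIF2α, rose from 1.52 and 4.68 CPM at day 16 to 74.3 and 71.9 CPM at day 45 (log2 fold change 4.55, SE 0.37, adjusted p = 4.99e-12). RNA levels do not measure HIF protein, and oxygen was not measured in these files.

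**Figure D4:**
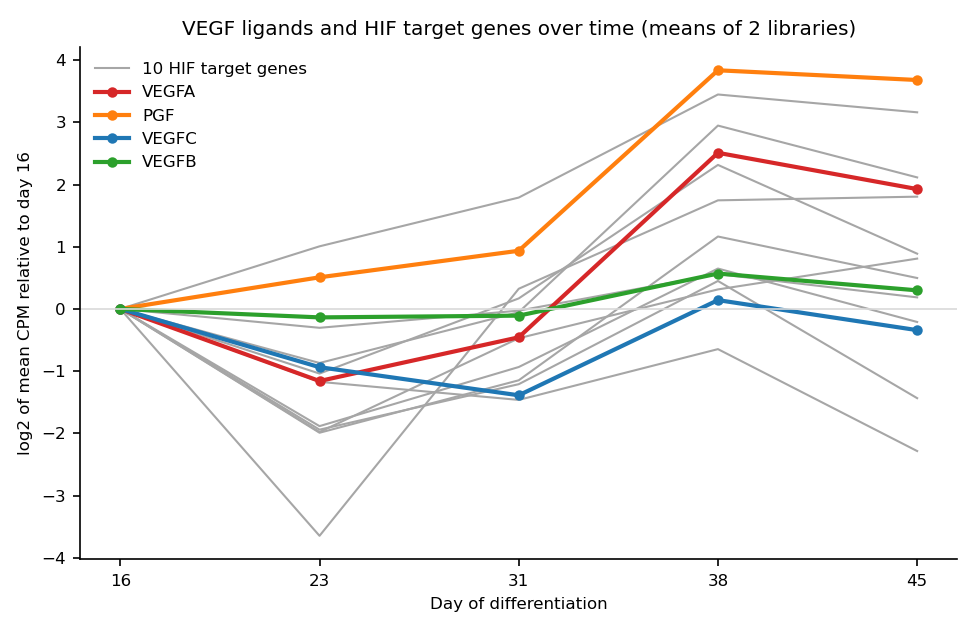
Log2 of the mean CPM of 2 libraries relative to day 16, by day, for *VEGFA* (red), *PGF* (orange), *VEGFC* (blue), *VEGFB* (green) and the 10 HIF target genes (gray lines). *VEGFA* and most gray lines dip at day 23, peak at day 38 and drop at day 45, and *PGF* stays high at day 45.

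Promoter sequence from RefSeq (GRCh38.p14, 250 bases before to 50 after the start) was held for 6 of the 10 genes, *VEGFB*, *VEGFC*, *PGF*, *FLT1*, *KDR* and *THBS1*. The core of the hypoxia response element was searched as ACGTG or GCGTG on both strands. The first also lies within the E-box CACGTG. The promoters of 5 of the 6 genes, all but *KDR*, held a core, as did 48.4% of 35116 promoters of the same length. Of the 10 HIF target genes, 9 were matched and 7 held one, taking the first entry of a gene with several, or 8 with the second entry of *PDK1*. The cAMP response element TGACGTCA was found in *FLT1* alone among the 6, and in 1.85% of all promoters. The bases before the start are shown for *FLT1* (chr13:28495129-28495378, minus strand), *VEGFC* (chr4:176792923-176793172, minus strand) and *THBS1* (chr15:39580829-39581078, plus strand), a receptor, a ligand and the inhibitor whose levels changed, with the motifs in capitals and CACGC as the reverse strand of GCGTG.
FLT1: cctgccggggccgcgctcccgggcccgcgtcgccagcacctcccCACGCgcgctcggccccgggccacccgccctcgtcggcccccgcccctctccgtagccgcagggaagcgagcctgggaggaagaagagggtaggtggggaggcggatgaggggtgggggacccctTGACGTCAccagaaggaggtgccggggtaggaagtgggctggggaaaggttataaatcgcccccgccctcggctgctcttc
VEGFC: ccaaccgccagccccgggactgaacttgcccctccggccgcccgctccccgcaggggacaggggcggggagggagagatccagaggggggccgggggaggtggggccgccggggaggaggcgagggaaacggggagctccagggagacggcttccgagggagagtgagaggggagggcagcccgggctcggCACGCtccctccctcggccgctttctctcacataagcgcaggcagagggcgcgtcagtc
THBS1: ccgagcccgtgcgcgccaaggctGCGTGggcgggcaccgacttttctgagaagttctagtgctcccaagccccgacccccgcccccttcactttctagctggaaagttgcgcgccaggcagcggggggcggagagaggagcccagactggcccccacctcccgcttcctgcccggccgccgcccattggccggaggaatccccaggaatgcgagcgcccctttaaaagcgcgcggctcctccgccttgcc
The core begins 206 bases before the start in *FLT1*, 59 in *VEGFC* and 227 in *THBS1*, and the cAMP response element of *FLT1* begins 81 bases before it. A match in these letters is a description and not a binding site.

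The genes whose log2 CPM was most alike over the 10 libraries were sought among 13115 genes with a mean of at least 5 CPM, and the values are descriptions over libraries that share days, media and depth. For *VEGFA* they were *GAPDH* (Pearson r 0.99), *ERO1A* (0.99) and *GPI* (0.99). *GAPDH* and *GPI* are enzymes of glycolysis and *ERO1A* an oxidase of the endoplasmic reticulum. For *PGF* they were *LRP2* (0.99), the endocytic receptor megalin, *CDKN1C* (0.99) and *SYT13* (0.99). *VEGFC* was most like *APP*, *COL4A2* and *SOCS2* (0.97 to 0.98), and *ANGPT1* most like *LOC644634*, *PLPPR1* and *TBC1D1* (0.99 to 1.00). *THBS1* was most like *PLA2G4F*, *NFKBIZ* and *EMP1* (0.97 to 0.99), and *NRP1* most like *DDX11*, *PWAR5* and *SALL4* (0.97 to 0.98). For *FLT1* (*LDB2*, *AVPI1*, *AP3D1*), *KDR* (*TAF3*, *PLEKHB1*, *TEKT2*), *VEGFB* (*MCF2L*, *MPP2*, *FBXO4*) and *ANGPT2* (*CAMSAP2*, *FDX1*, *HS3ST1*) the values ran from 0.84 to 0.98.

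Markers of other cell types were followed in the same libraries. The 12 endothelial markers summed to means of 137, 95.9, 81.5, 75.5 and 101 CPM over the 5 days, and *EMCN* was the most abundant at days 16 (62.8 CPM), 23 (48.9 CPM) and 38 (22.7 CPM), while *MMRN2* led at days 31 (22.4 CPM) and 45 (29.4 CPM). Of the 11 tested, 4 differed between days, near the 36.3% of all genes. At day 45 against day 16, *EGFL7* and *SOX18* were higher and *EMCN* was lower, with a median log2 fold change of 1.93 (24.6% of all genes passed). That median is the value of *CD34*, which did not pass (edgeR adjusted p = 0.512). *CD34* had 0 and 9 counts at day 16 and 20 and 13 counts at day 45. The summed level of the list was lower at day 45 than at day 16. *SOX18* had 0 counts in both day 16 libraries, and its call did not hold with every single library left out. Without day 45 replicate 2 its log2 fold change was 7.13. *EGFL7* rose by 1.33 (SE 0.46) but did not pass with library size alone (edgeR adjusted p = 0.0528), and was 0.76 without day 16 replicate 2. In the step to day 38 *SOX18* rose from 0 counts to 1.40 and 1.86 CPM (adjusted p = 0.0457), which no longer passed with library size alone (adjusted p = 0.0507), without any of the 4 libraries of the step (adjusted p 0.112 to 0.186), or without either day 45 library (adjusted p = 0.0547 and 0.108). *MMRN2*, with 19.0 and 25.7 CPM at day 31 and 6.37 and 6.87 CPM at day 38, fell (adjusted p = 0.000152). The same step held the fall of *KDR* and the rise of *VEGFA*. Per library the endothelial markers summed to 64.7 and 98.2 CPM at day 31 and to 69.6 and 81.4 CPM at day 38, and the defining markers stood at means of 0.324 CPM (*PECAM1*), 4.95 CPM (*CDH5*) and 0.598 CPM (*VWF*) on that day.

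The 10 fibroblast and mural markers summed to means of 451, 500.0, 435, 1447 and 1395 CPM. They include *ACTA2*, *DES* and *TNNT2*, which the study uses as markers of its cardiovascular cells. Of the 10, 8 differed between days (36.3% of all genes). In the step to day 38, 4 rose and 1 fell (15.0% of all genes passed), with a median log2 fold change of 0.59. Under other fits 3 to 4 rose. *PDGFRA*, among the 4, rose by 1.03 but did not pass with library size alone (0.82, edgeR adjusted p = 0.0885). Its change ran from 0.90 to 1.18 with a library of the step left out, and its call did not hold there. *COL1A2*, a collagen chain of fibroblasts, held 154 and 210 CPM at day 31 and 1151 and 1163 CPM at day 38 (log2 fold change 2.67, SE 0.14, adjusted p = 2.63e-16). *DES* rose by 2.81 (SE 0.32, adjusted p = 3.83e-08) and *ACTA2*, a smooth muscle actin, by 3.84 (SE 0.62, adjusted p = 1.75e-05). The gene that fell was *LUM*, a fibroblast matrix proteoglycan, at -1.23 (SE 0.18, adjusted p = 2.8e-06). *DCN*, another defining fibroblast gene, stood at 43.1 and 52.5 CPM at day 31, 52.1 and 49.5 CPM at day 38, and 145 and 115 CPM at day 45, and *PRRX1* had means of 6.04 and 7.83 CPM at days 31 and 38. Between day 16 and day 45, 8 of the 10 rose and 2 fell (24.6% of all genes passed). The calls of *LUM*, *TNNT2* and *RGS5*, a mural cell gene, did not hold with every single library left out. *RGS5* was -0.58 on the log2 scale without day 16 replicate 2 and -0.48 without day 45 replicate 1. *TNNT2* was 1.61 and 2.16 without the same libraries, and *LUM* was 0.39 without day 16 replicate 1. *DCN* rose by 4.46 (SE 0.32, adjusted p = 2.42e-13). The 5 airway and goblet markers summed to 19.6 CPM at day 31, 62.5 CPM at day 38 and 121 CPM at day 45. From day 38 to day 45, 2 of the 5 rose and 1 fell (11.2% of all genes passed), and 1 to 2 rose under other fits. *KRT5* rose by 1.57 on the log2 scale, or by 1.36 to 1.75 with a library of the step left out, where its call did not hold. *MUC5B* held 17.1 and 13.2 CPM at day 38 and 96.5 and 47.4 CPM at day 45. Its rise of 2.25 did not pass with DESeq2 (adjusted p = 0.0936). Without day 45 replicate 1 the rise was 1.65 and its call did not hold. *MUC5AC* fell from 29.7 and 21.9 CPM to 0.436 and 2.075 CPM (log2 fold change -4.30, SE 0.73, edgeR adjusted p = 6.24e-05). The 8 thyroid markers summed to 1586 CPM at day 31, 6973 CPM at day 38 and 9069 CPM at day 45. *TG* was 206 CPM of this at day 31, below *PAX8* at 503 CPM, and most of it at days 38 and 45 (5211 and 7744 CPM). In the step to day 38, 4 of the 8 rose and 0 fell (15.0% of all genes passed). Under other fits 4 to 5 rose and 0 to 1 fell. *SLC5A5*, among the 4, had 0 and 13 counts at day 31 and 43 and 70 counts at day 38. Its rise was 2.07 on the log2 scale without day 31 replicate 1 and 2.63 without day 38 replicate 2, and its call did not hold there. From day 38 to day 45 only *TG* rose, while *FOXE1*, *HHEX* and *NKX2-1* fell (11.2%). At day 45 against day 16, 5 were higher and 3 lower (*FOXE1*, *NKX2-1* and *PAX8*), where 24.6% passed. In that pair *HHEX*, *SLC5A5*, *NKX2-1* and *PAX8* did not hold with every single library left out. The part of these cells in the changes of *VEGFA*, *PGF*, *THBS1* and the receptors was not tested.

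**Figure D5:**
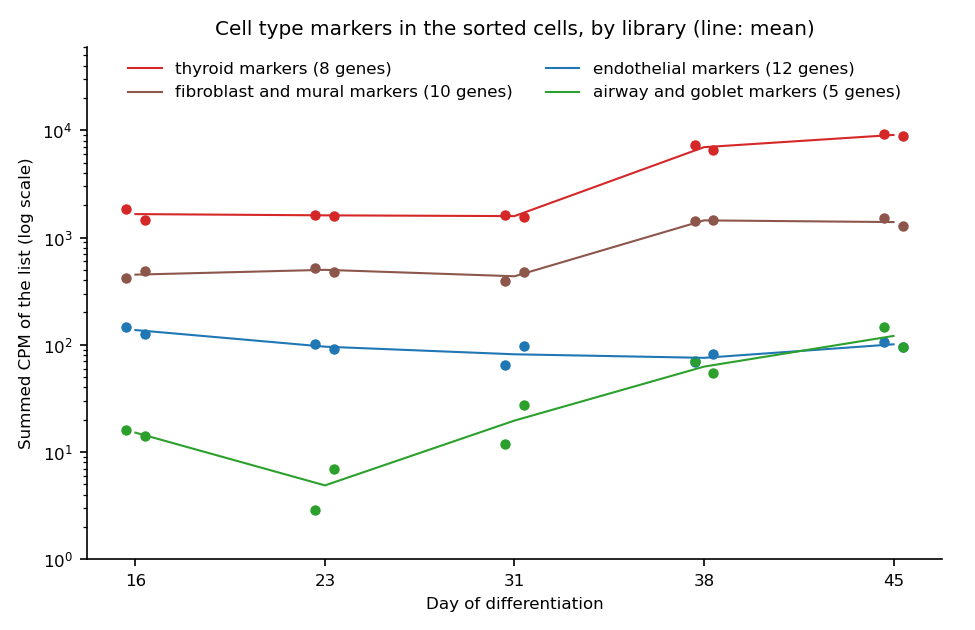
Summed CPM of 4 lists of cell type markers on a log axis, by day, with 1 point per library and lines through the means. The endothelial sum stays between 75.5 and 137 CPM in its means. The thyroid sum rises from 1586 CPM at day 31 to 6973 CPM at day 38, and the fibroblast and mural sum from 435 to 1447 CPM. Single genes carry most of these rises, with means of 206 and 5211 CPM for *TG* and 182 and 1157 CPM for *COL1A2* on these days.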

How the data were processed

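The authors trimmed reads with Trimmomatic, aligned them to GRCh38.p13 with HISAT2 and ran HTSeq on the alignments. Their deposited files hold raw counts for 28265 symbols in each of 10 libraries, with no column from outside the series (0). From these counts, the 21014 genes that reached 5 counts in 2 or more libraries were tested with edgeR 4.0.16 in R 4.3.3 (quasi-likelihood F test, TMM factors of 0.896 to 1.07, one mean per day, Benjamini-Hochberg over all genes, threshold 0.05). A standard error is the size of the log2 fold change over the root of its F statistic, an approximation. A count of 3, taken as the floor, equals 0.307 to 0.436 CPM and covers counting error only, since PCR copies are not separated. Replicates of a day differed by more than sampling noise (chi-square per degree of freedom 8.38 to 13.7).

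The members and lists were chosen with earlier results of these data known. Named genes are the 10 members, the defining genes and the 3 genes most like each member. Up to 4 further genes of each list were named by the smallest any-day adjusted p. In the list of other VEGF and angiopoietin genes, *FLT4* and *NRP2* were named although *ANGPT4* had a smaller value. *EGLN3*, *ANKRD37*, *RGS5*, *CD47*, *COL18A1*, *VASH2*, *THBS3*, *HIF1A* and *EGLN2* were named after their values were seen. So were *THBS2*, *PDGFRA*, *TNNT2*, *EGFL7*, *CD34*, *KRT5*, *MUC5B*, *MUC5AC*, *FOXE1*, *HHEX* and *SLC5A5*. DESeq2 1.42.0, library size, upper-quartile factors, no filter, filterByExpr, the replicate number as a block and leaving out each library were the alternatives. List counts and list genes under them were added after seeing the data. GENCODE 44 matched 25755 of 28265 symbols (91.1%).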

Additional observations from a re-analysis of the deposited data

How the results depend on the processing

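Of the 20 member changes that passed, 0 changed sign under any alternative and 13 passed whichever single library was left out. With one library of a day left out, the lone library was assumed to vary like the others. The losses are given with each gene, and *ANGPT1* from day 38 to day 45 also did not pass with library size alone (adjusted p = 0.0608) or upper-quartile factors (adjusted p = 0.0621). *THBS1* from day 31 to day 38 passed with DESeq2 (adjusted p = 0.0260) and with library size alone (adjusted p = 0.00298), and *FLT1* in the same step with no filter (adjusted p = 0.00151). Leaving out single libraries gave 1 to 3 members called for day 23 against day 16 and 3 to 6 for day 38 against day 31. It gave 1350 to 2383 genes called for day 23 against day 16, 206 to 646 for day 31 against day 23, 1764 to 3614 for day 38 against day 31, and 1166 to 2816 for day 45 against day 38.

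Over 12676 genes the deviations of same-numbered libraries correlated at -0.0829 to 0.0982 over the 10 pairs of days, with 0 over 0.1. Such correlations showed no pairing by replicate number, but they cannot exclude a batch shared by some genes. With the replicate block, 4 members passed for day 23 against day 16 and 7 for day 38 against day 31, *FLT1* being added in both (adjusted p = 0.0469 and 0.000269), and 678 genes passed for day 31 against day 23 (473 without it). More genes also passed with the block for day 23 against day 16 (2703, 2296 without it) and day 38 against day 31 (3472, 3160 without it). The same held for day 45 against day 38 (2691, 2353 without it) and day 45 against day 16 (5460, 5175 without it). *SOX18* for day 38 against day 31 did not pass with the block (adjusted p = 0.0584).

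Some changes that did not pass turned sign. *VEGFB* for day 31 against day 23 was -0.0225 on the log2 scale with the replicate block, and *ANGPT2* for day 45 against day 38 was 0.0292 with DESeq2, 0.0364 with library size and 0.0468 with upper-quartile factors. Leaving out single libraries gave these log2 ranges. *VEGFB* ran from -0.47 to 0.31 for day 23 against day 16, from -0.48 to 0.40 for day 31 against day 23, from -0.61 to 0.0031 for day 45 against day 38 and from -0.0398 to 0.717 for day 45 against day 16. *ANGPT2* ran from -0.76 to 0.22 for day 38 against day 31, from -0.71 to 0.56 for day 45 against day 38 and from -0.39 to 0.77 for day 45 against day 16. *KDR* ran from -0.0644 to 0.555 for day 31 against day 23, from -0.44 to 1.59 for day 45 against day 38 and from -1.52 to 0.52 for day 45 against day 16. *THBS1* for day 23 against day 16 ran from -0.195 to 0.0202, *NRP1* for day 31 against day 23 from -0.13 to 0.17, and *PGF* for day 45 against day 38 from -0.34 to 0.0077. *FLT1* for day 31 against day 23 ran from -7.65 to 1.78, the lowest value resting on the day 31 library at 0 counts and on the prior count of the fit, and that value passed (adjusted p = 0.0084), as did *FLT1* for day 38 against day 31 (10.16, adjusted p = 6.98e-06), both without day 31 replicate 2, and *KDR* for day 45 against day 16 at -1.52 without day 45 replicate 1 (adjusted p = 0.0101). Beyond these constructions the cause was not tested. For *FLT1* in day 31 replicate 1, a count of 0 allows up to 0.307 CPM.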

Other observations

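Class 3 semaphorins are secreted guidance proteins that use NRP1 and NRP2 with plexins as receptors. Of 12 genes for them and their plexins, 9 differed between days (36.3% of all genes), and from day 38 to day 45, 1 rose and 5 fell (11.2% of all genes passed), with a median log2 fold change of -0.32. Without day 38 replicate 1, day 38 replicate 2 or day 45 replicate 2, 3 fell, and 0 rose with any of the 4 libraries of that step left out. *SEMA3C* held 257 and 361 CPM at day 16, 79.8 and 78.0 CPM at day 31, 183 and 170 CPM at day 38, and 63.9 and 40.9 CPM at day 45. It rose by 1.16 on the log2 scale to day 38 (SE 0.17, edgeR adjusted p = 3.02e-06) and changed by -1.76 to day 45 (SE 0.17, adjusted p = 2.97e-09). *SEMA3D* rose by 1.51 to day 38 (SE 0.21, adjusted p = 1.29e-06) and changed by -1.41 to day 45 (SE 0.21, adjusted p = 7.53e-06). *PLXNA2*, a plexin receptor, changed by -1.62 in the step to day 38 (SE 0.22, adjusted p = 9.1e-07). *SEMA3E* rose by 1.86 to day 23 (SE 0.31, adjusted p = 5.39e-05).

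Of 14 other angiogenic growth factors, 9 differed between days (36.3% of all genes), and between day 16 and day 45, 7 rose and 2 fell (24.6% of all genes passed), with a median log2 fold change of 0.59. With single libraries left out 4 to 7 rose, 4 without day 16 replicate 1. *CXCL8*, which encodes the neutrophil chemokine IL-8, also known to act on vessels, had 0.380 and 0 CPM at day 16, 6.24 and 5.24 CPM at day 31, 121 and 82.4 CPM at day 38, and 638 and 543 CPM at day 45. It rose by 4.14 on the log2 scale to day 38 (SE 0.22, edgeR adjusted p = 2.44e-16) and by 2.54 to day 45 (SE 0.18, adjusted p = 2.81e-12). *MDK*, the heparin-binding growth factor midkine, went from 375 and 505 CPM at day 16 to 99.9 and 89.5 CPM at day 45 (log2 fold change -2.22, SE 0.15, adjusted p = 3.36e-14). *PDGFA*, a growth factor for mesenchymal cells, rose by 2.63 to day 38 (SE 0.48, adjusted p = 0.000128). *CCN1*, a matrix-bound inducer of vessel growth, fell by 0.64 to day 23 (SE 0.12, adjusted p = 0.000281) and rose by 0.59 to day 38 (SE 0.12, adjusted p = 0.000559).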
